A study of Mus musculus with 6 samples.

Results

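The early response to NAC1 rescue was described from 4 of the 6 bead arrays of the series, namely the arrays of day 2 and of day 0 from the same clones. All cells were mouse induced pluripotent stem (iPS) cells, which are differentiated cells returned to a pluripotent state. Both clones, a Nac1 null iPS line named clone #5 and another named clone #7, lack Nac1 (gene symbol Nacc1) and underwent an hNAC1 rescue, that is, the human gene was given back. Day 0, day 2 and day 5 of that rescue were sampled with 1 array per clone and day, so each day had 2 arrays. Each line is a single clone, no culture was repeated on a day, and the labels do not say how human NAC1 was delivered. No array came from null cells kept without the rescue, so NAC1, time in culture and handling cannot be told apart. All 6 arrays lay on 1 chip.

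NAC1 is a transcription regulator of the BTB family that binds other proteins of the pluripotency network. A pluripotent cell builds its own basement membrane, a sheet of laminins, type IV collagen, nidogens and perlecan to which integrins attach. Proteins of this sheet, of the cell surface and of the lysosome all enter the endoplasmic reticulum (ER) while they are made, and chaperones and disulfide isomerases fold them there. Cells match this folding capacity to the load through the unfolded protein response, whose factors bind the ER stress element in promoters of chaperone genes.

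Between 16739 and 17663 of 45281 probes were detected on the 4 arrays, and 12030 genes were tested, each through its brightest probe. Values are log2 signals after background correction and quantile normalization, and a change is day 2 minus day 0 of the same clone. The median change over all genes was 0.015 in clone 5 and 0.023 in clone 7, and stayed near 0 in each of 5 bins of signal level. Of the named genes, 71 had other kept probes, and 20 of these 100 probes differed in sign from the brightest probe in at least 1 clone. Having so few arrays limits how precise any value is.

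The mouse Nacc1 probe read 7.09 on day 0 and 7.25 on day 2 in clone 5. In clone 7 the same probe read 7.34 and then 7.29. Mouse Nacc1 thus showed no difference beyond the spread between arrays (0.06 ± 0.17, SE of the fit, n = 2 arrays per day), and the labels do not say which part of the gene was deleted. The probe therefore checks neither the knockout nor the human transgene. Of 4 Nacc1 probes, 1 was detected on none of the 6 arrays. Markers of the labelled cell type were present, since Pou5f1 read 11.58 to 12.08 and Nanog 11.21 to 11.89 over the 4 arrays.

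No gene passed the moderated test of limma after Benjamini-Hochberg adjustment at the 0.05 level (0 of 12030 genes, 0%). The lowest adjusted p was 0.0627, and 1629 genes had an unadjusted p under 0.05, of which 818 were higher and 811 lower on day 2. The fit uses all 6 arrays and holds the clone fixed. With the 4 arrays of days 0 and 2 alone, limma called 35 genes, 11 higher and 24 lower, and 51 genes where these 4 arrays were also normalised alone, a setting chosen after seeing the data. In what follows, genes are therefore described by their change in each clone, with a 2-fold change used as a descriptive mark and not as a test.

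At least a 2-fold lower signal in both clones was seen for 30 genes (0.249% of those tested), and at least a 2-fold higher signal in both for 14 (0.116%). Clone 5 alone had 94 genes at least 2-fold lower (0.781%) and 49 at least 2-fold higher (0.407%). Clone 7 had more of each, with 248 lower (2.06%) and 147 higher (1.22%). The 44 genes shared in direction made up 30.8% of the 143 genes past 2-fold in clone 5 and 11.1% of the 395 in clone 7. No gene passed 2-fold in opposite directions. Of the 143 clone 5 genes, 116 had the same direction in clone 7 at any size, and of the 395 clone 7 genes, 344 had it in clone 5. Over all genes, 29.1% were lower in both clones, 33.6% higher in both and 37.1% opposite in sign, which is the background for the list counts below.

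**Figure D1:**
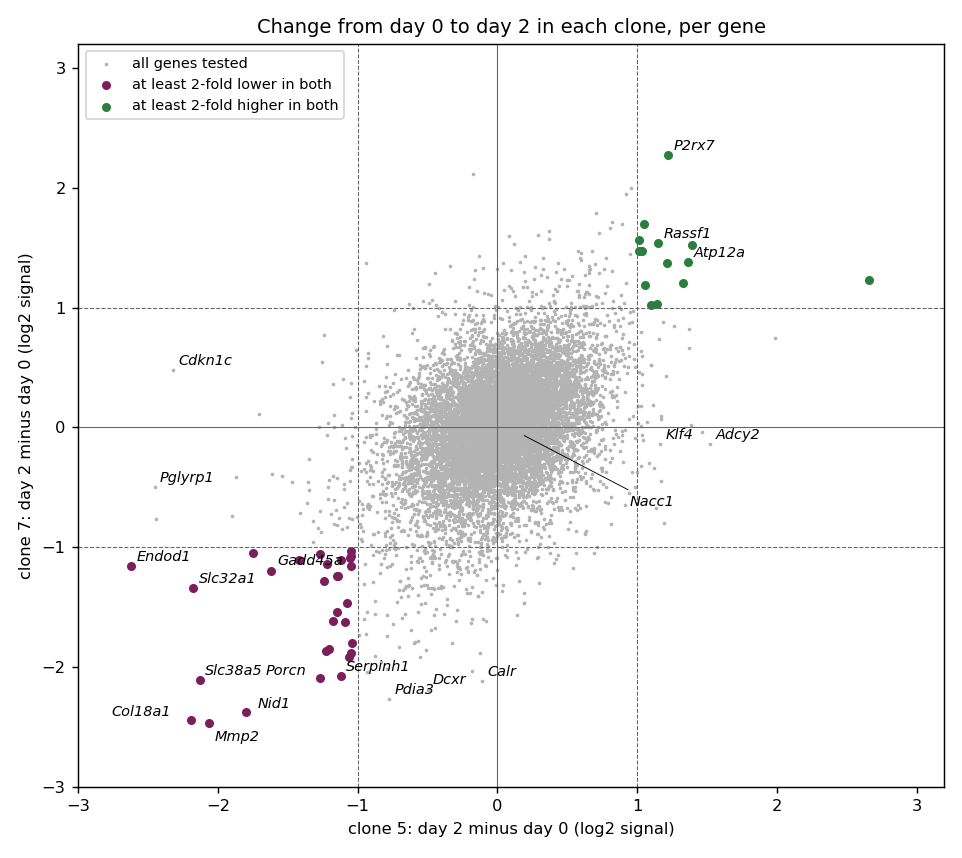
Each point is a gene, placed by its day 2 minus day 0 change in log2 signal in clone 5 (x axis) and clone 7 (y axis); dashed lines mark 2-fold. Col18a1, Mmp2, Nid1 and Slc38a5 lie at the lower left, while Cdkn1c lies far from 0 in clone 5 only.

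Of the 12 lowest genes by the change in the clone that changed less, 5 encode basement membrane proteins or secreted proteases of the matrix. Col18a1, the core of collagen XVIII in basement membranes, read 11.75 and 11.68 on day 0 (clone 5, then clone 7) and 9.55 and 9.24 on day 2. Both day 2 arrays lay below both day 0 arrays, which is 4.57-fold lower in clone 5 and 5.44-fold lower in clone 7 (mean change -2.32 ± 0.21, limma adjusted p = 0.0627, or 0.00446 with the 4 arrays alone). Mmp2, a secreted gelatinase that cuts type IV collagen, read 9.68 and 9.97 on day 0 against 7.62 and 7.50 on day 2. Nid1, the nidogen that joins laminin to collagen, read 9.15 and 9.80 against 7.35 and 7.42. For these genes too the days did not overlap, and their adjusted p equalled that of Col18a1. With the 4 arrays alone the adjusted p was 0.00446 for Mmp2 and 0.0113 for Nid1. The share of all genes whose days did not overlap was not counted. Genes picked for large changes in both clones tend to be among them, so a lack of overlap is only description, here and below.

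Of 26 basement membrane genes listed, 17 were measured, of which 13 were lower in both clones and 0 higher in both. The median change was -0.46 in clone 5 and -0.98 in clone 7, and the change was more negative in clone 7 for 15 of the 17. Col4a1, an alpha chain of type IV collagen, read 7.12 and 7.07 on day 0 and 5.95 and 5.45 on day 2. Its partner chain Col4a2 read 5.66 and 5.62 on day 0 and was detected on neither day 2 array, so it was at least 2.00-fold lower. The collagen IV pair thus had no overlap between days. Sparc, a collagen-binding matrix protein, read 10.61 and 10.30, then 10.01 and 8.50, and most of its difference came from clone 7. The laminin chains were not uniform. Lama1 was 1.19 higher in clone 5 and had a change of -0.79 in clone 7, while Lamc1 had changes of -0.46 and -1.57. Lama1 and Lamc1 were chosen after their values were seen.

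Interstitial matrix genes had 12 of 32 members measured, 8 lower in both clones and 1 higher. Fbln1, a fibulin of elastic fibres and basement membranes, read 8.98 and 8.95 on day 0 and 7.93 and 7.16 on day 2, with no overlap. Fbln2 had changes of -0.96 and -1.31, Col5a1 of -0.69 and -1.42, and Fstl1, a secreted glycoprotein, of -0.55 and -1.92. Matrix proteases and their inhibitors had 20 measured members, 12 of them lower in both clones and 3 higher. Htra1, a secreted serine protease, read 9.46 and 9.37 and then 8.23 and 7.50. A further probe of Htra1 had changes of -1.21 and -1.80, close to those of its brightest probe. The inhibitor Serpine2 had changes of -0.47 and -1.69 and Mmp14, which activates Mmp2 at the cell surface, of -0.42 and -0.73. The direction was thus shared by the proteases named here and the inhibitor Serpine2, whose dimmer probe had smaller changes of -0.21 and -0.45. Other inhibitors were not uniform, as Timp1 was lower in both clones (-0.07 and -0.86) and Timp2 higher (0.08 and 0.01). Timp1 and Timp2 were chosen after their values were seen.

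Integrins and other adhesion receptors followed the matrix in direction, with 11 of 16 measured members lower in both clones and 1 higher. Itgb1, the beta chain shared by most matrix-binding integrins, read 6.01 and 6.24 on day 0 and 4.92 and 4.62 on day 2. The day 2 signal in clone 7 was not detected above background. A dimmer Itgb1 probe had changes of -0.57 and -0.31, so the size depended on the probe. Itga6 and Itgb4, which pair as a laminin receptor, had changes of -0.48 and -0.57 in clone 5 and -1.39 and -1.54 in clone 7. Other Itga6 probes were higher in clone 5, by 0.13 and 0.21. Ncam1, a neural adhesion molecule also made by stem cells, had changes of -0.79 and -1.74. The list median was -0.13 in clone 5 and -0.94 in clone 7.

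**Figure D2:**
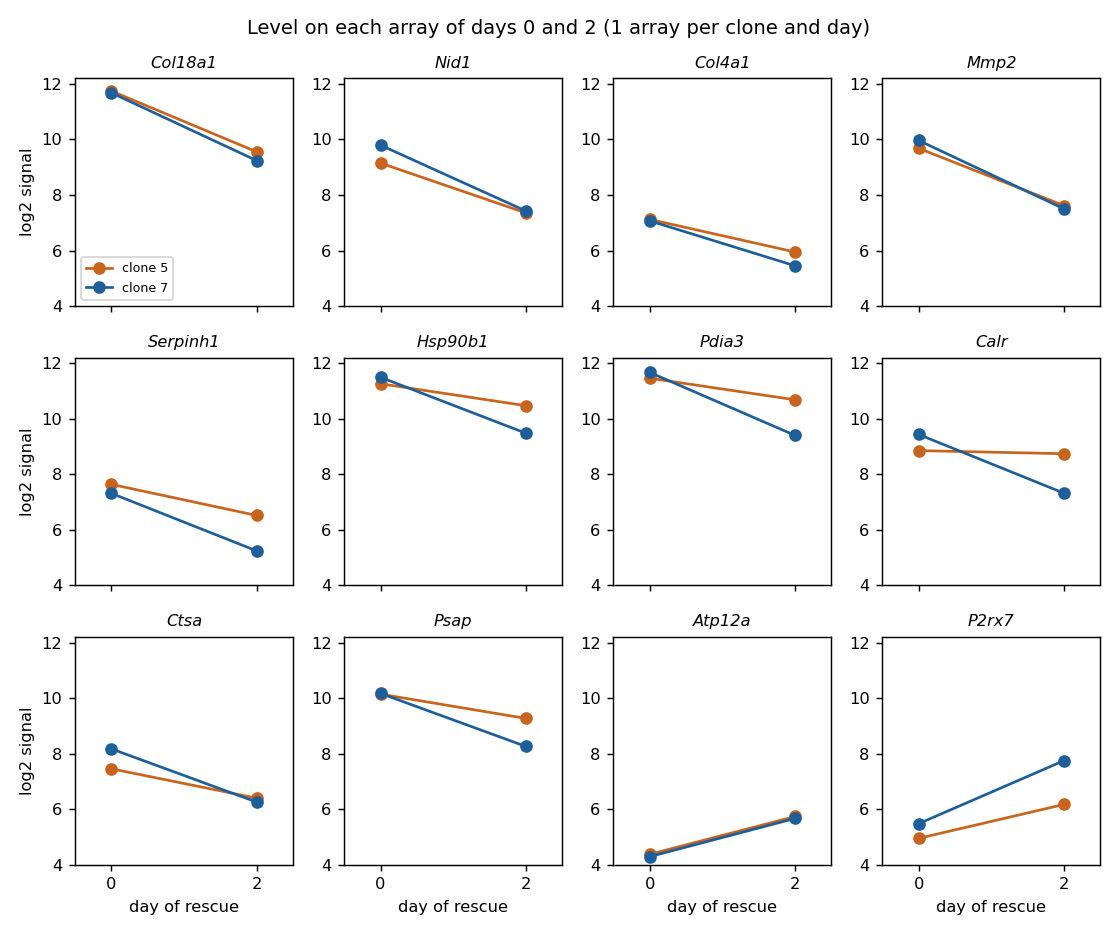
Log2 signal on the day 0 and day 2 array of clone 5 and of clone 7 for 12 genes, each point 1 array and each line 1 clone. Col18a1 is lower by similar amounts in both clones (-2.19 and -2.44), whereas Calr differs between days mainly in clone 7 (-0.11 against -2.12).

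Genes of the ER folding machinery were lower as a group. Of 41 measured chaperones and folding enzymes, 35 were lower in both clones (85.4%, against 29.1% of all genes) and 3 higher in both. The median change was -0.305 in clone 5 and -0.89 in clone 7, and 16 members were at least 2-fold lower in clone 7 against 3 in clone 5. The change was more negative in clone 7 for 38 of 41 members, against 5938 of all 12030 genes.

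Serpinh1, the collagen-specific chaperone Hsp47, read 7.64 and 7.32 on day 0 and 6.52 and 5.24 on day 2, or 2.18-fold and 4.21-fold lower. Hsp90b1, the ER form of Hsp90 known as Grp94, read 11.27 and 11.50 and then 10.47 and 9.48. In Pdia3, a disulfide isomerase that works with calreticulin, the signal went from 11.46 to 10.69 in clone 5 and from 11.68 to 9.41 in clone 7. For all 3 genes the day 2 arrays lay below the day 0 arrays, with mean changes of -1.60 ± 0.24, -1.40 ± 0.28 and -1.52 ± 0.33. Another disulfide isomerase, Pdia4, had changes of -0.71 and -1.84. Pdia6, which belongs to the same enzyme family and was named for its promoter, read 6.57 and 6.47 and then 5.43 and 5.23, with nearly equal changes in the clones (-1.14 and -1.24). Calr, encoding calreticulin, read 8.86 and 8.74 in clone 5 and 9.44 and 7.32 in clone 7, so its difference lay almost wholly in clone 7. A dimmer Serpinh1 probe had changes of only -0.21 and -0.32.

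The promoters of these genes were searched on both strands for the ER stress element, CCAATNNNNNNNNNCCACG, where N is any base. The window ran from 250 bases before to 50 bases after each start site in RefSeq (GRCm38.p6). Of the 36 measured folding genes with a promoter in that table, 8 held it (22.2%), against 37 of all 27025 genes (0.137%) and 14 of 8126 tested genes (0.172%). The 8 genes were Calr, Creld2, Derl3, Dnajc3, Ero1b, Hsp90b1, Pdia6 and Syvn1. All but Ero1b were lower in both clones, as were 35 of all 41 measured folding genes (85.4%), so the element marked no further difference. The element is known from promoters of chaperone genes, so its larger share among them is not a result of these data. Of all 14 tested genes with the element, 7 were lower in both clones, 2 higher in both and 5 of opposite sign. The higher ones were Acacb (0.45 and 0.36) and Zfp57 (0.53 and 0.19), which are not folding enzymes. A match of letters is a description and does not show that a factor binds there. The 250 bases before the start site are shown for 4 of these genes, with the element in capitals, read as its reverse complement where it lies on the other strand. They are shown because these folding genes have the element and differ in how much clone 5 took part.
Hsp90b1, chr10:86705445-86705694, minus strand: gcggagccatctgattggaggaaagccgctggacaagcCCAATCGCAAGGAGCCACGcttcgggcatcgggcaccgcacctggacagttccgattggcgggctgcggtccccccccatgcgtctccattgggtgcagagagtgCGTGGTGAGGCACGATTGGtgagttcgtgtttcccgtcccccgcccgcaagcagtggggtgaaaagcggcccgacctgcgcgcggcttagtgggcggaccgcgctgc
Pdia6, chr12:17266339-17266588, plus strand: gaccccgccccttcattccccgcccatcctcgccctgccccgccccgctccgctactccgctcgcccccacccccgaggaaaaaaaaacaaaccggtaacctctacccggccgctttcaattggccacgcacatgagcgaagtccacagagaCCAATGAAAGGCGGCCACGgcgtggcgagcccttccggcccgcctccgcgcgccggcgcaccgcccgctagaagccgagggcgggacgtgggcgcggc
Dnajc3, chr14:118937682-118937931, plus strand: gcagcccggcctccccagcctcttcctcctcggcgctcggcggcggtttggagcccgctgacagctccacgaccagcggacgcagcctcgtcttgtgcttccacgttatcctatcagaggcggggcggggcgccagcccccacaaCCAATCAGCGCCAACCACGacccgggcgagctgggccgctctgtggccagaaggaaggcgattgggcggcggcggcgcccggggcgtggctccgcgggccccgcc
Calr, chr8:84846932-84847181, minus strand: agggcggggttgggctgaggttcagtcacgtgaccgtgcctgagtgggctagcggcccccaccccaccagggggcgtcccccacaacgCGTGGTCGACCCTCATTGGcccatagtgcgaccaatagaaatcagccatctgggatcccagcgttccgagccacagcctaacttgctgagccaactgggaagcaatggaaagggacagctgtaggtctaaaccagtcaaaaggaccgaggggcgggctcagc
Hsp90b1 holds the element in both orientations and the other 3 genes hold it a single time. Dnajc3, an ER co-chaperone that also inhibits the kinase PERK, had changes of -0.50 and -1.34. Between Pdia6 and Calr, each with 1 copy, the clone 5 change ranged from -1.14 to -0.11.

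The steps before and after folding differed from the chaperones in extent. ER translocation and N-glycosylation genes had 35 measured members, 16 lower in both clones and 5 higher, with medians of -0.04 and -0.31. The 4 members with the largest mean change all act on N-linked sugars. Ddost, a subunit of the oligosaccharyltransferase, read 9.07 and 9.11 and then 8.14 and 7.57. Its catalytic subunit Stt3a had nearly equal changes of -0.85 and -0.88, the subunit Rpn2 changes of -0.45 and -0.99, and Prkcsh, the beta subunit of glucosidase II, changes of -0.53 and -1.31. A dimmer Prkcsh probe had changes of only 0.01 and -0.13. On the brightest probes, both day 2 arrays lay below both day 0 arrays for each of these 4. These were picked for large mean changes and the share over all genes was not counted, so this is only description. ER to Golgi transport genes had medians nearer 0, at -0.02 and -0.11, with 12 of 32 members lower in both clones and 7 higher. The cargo receptor Lman1 (-0.42 and -1.09) and the retrieval receptor Kdelr2 (-0.40 and -0.93) had the largest mean changes, followed by Ergic3 and Tmed7.

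Lysosomal genes were lower in both clones for 24 of 35 measured members and higher in both for 3. The median change was -0.27 in clone 5 and -0.70 in clone 7, and 11 members were at least 2-fold lower in clone 7 against 1 in clone 5. Ctsa, cathepsin A, read 7.46 and 8.18 on day 0 and 6.40 and 6.26 on day 2. Psap, the precursor of the saposins that aid sphingolipid breakdown, read 10.15 and 10.18 and then 9.27 and 8.26. Neither gene had any overlap between days, and 2.09-fold in clone 5 made Ctsa the only list member past 2-fold there. Grn, progranulin, had changes of -0.66 and -1.56 and the lysosomal mannosidase Man2b1 of -0.72 and -1.46. A dimmer Ctsa probe gave smaller changes of -0.48 and -0.47, and another Psap probe gave changes of -1.08 and -2.09. Tetraspanins and membrane glycoproteins had 10 of 19 members lower in both clones, led by Aplp2, a relative of the amyloid precursor (-0.99 and -1.73). Tspan6 differed in sign, at 0.19 in clone 5 and -1.47 in clone 7.

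Amino acid supply was the next group of lower genes. Slc38a5, a glutamine transporter, read 8.23 and 6.79 on day 0 and 6.09 and 4.68 on day 2, or 4.38-fold and 4.31-fold lower. Its clones differed in level on each day but by a similar step between days. The day 2 signal of clone 7 lay close to the lowest detected signal of that array (4.66), so the size of its step is uncertain. Over settings the mean change ranged from -2.89 to -1.13. Slc7a7, a cationic amino acid exchanger subunit, had changes of -1.75 and -1.05, Slc1a4, a neutral amino acid carrier, of -0.51 and -1.86, and the glycine transporter Slc6a9 of -0.38 and -1.56. Slc6a9 was not detected on day 2 of clone 7, so its level there is only a bound. Of 20 measured amino acid transporters, 12 were lower in both clones and 2 higher, with medians of -0.25 and -0.24. Genes of the ATF4 stress response and serine synthesis had 15 of 23 members lower in both clones and 3 higher, with medians of -0.28 and -0.51. Chac1, a glutathione-degrading ATF4 target, read 8.34 and 8.46 and then 7.41 and 6.42. Phgdh, the entry enzyme of serine synthesis, had changes of -0.80 and -1.02, Aldh18a1 of proline synthesis -0.50 and -1.32 and the pseudokinase Trib3 -0.62 and -1.13. Atf4 itself, named after its values were seen, was higher by 0.28 and 0.59. Of 18 aminoacyl-tRNA synthetases, which charge tRNAs with amino acids, 12 were lower in both and 1 higher. Cars, Tars, Sars and Eprs led this list, with mean changes of -0.61, -0.50, -0.50 and -0.49. Dimmer probes differed, at 0.18 and 0.10 for Tars, 0.04 and -0.30 for Cars and -0.15 and -0.06 for Sars. The C/EBP-ATF element TGATGNAAT, searched on both strands, lay in the promoters of 2 of 21 measured genes of the ATF4 list (9.52%), Nupr1 and Pycr1. It lay in 293 of all 27025 genes (1.08%) and in 49 of the 8126 tested (0.603%). The list gathers ATF4 response genes, so a larger share of an ATF element there is not a result of these data. Nupr1 (-0.73 and -0.76) and Pycr1 (-0.91 and -0.31) were lower in both clones, as were 15 of all 23 measured members.

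Several genes at least 2-fold lower in both clones stood outside these groups. Slc32a1, which loads GABA and glycine into vesicles, read 10.46 and 9.93 on day 0 and 8.28 and 8.59 on day 2. Porcn, the ER acyltransferase that lipid-modifies Wnt proteins, read 8.95 and 9.02 and then 7.68 and 6.92. Gbx2, a homeobox factor that acts downstream of LIF in naive stem cells, read 11.48 and 10.24 and then 10.24 and 8.96. Day 2 of clone 5 and day 0 of clone 7 were level for Gbx2, so the difference shows within clones and not between the day groups. Gadd45a, a stress-inducible growth arrest gene, had changes of -1.62 and -1.20, Glipr2 of -1.21 and -1.85 and Endod1 of -2.62 and -1.16. Of the 30 genes, 28 carry a current gene symbol and 12 are on the matrix, adhesion, ER, Golgi or lysosome lists. The share of all tested genes on these lists was not counted. The lists were also written with earlier results of these data known, so the 12 are only description.

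The 14 genes higher in both clones shared less. Only 9 of them carry a current symbol, and the rest are known by locus or transcript names in the deposited table. Atp12a, the catalytic chain of a proton and potassium pump, was not detected on either day 0 array and read 5.74 and 5.67 on day 2, so it was at least 2.02-fold higher. P2rx7, an ion channel gated by extracellular ATP, read 4.95 and 5.48 on day 0 and 6.18 and 7.76 on day 2. Further P2rx7 probes gave changes of 0.23 and -0.01 in clone 5 and 1.27 and 0.41 in clone 7, so its size and, for 1 probe in clone 5, its sign depended on the probe. Rassf1, a tumour suppressor with a Ras-association domain, read 8.55 and 8.47 and then 9.70 and 10.01. Rad9a, a subunit of the clamp that signals DNA damage, read 7.27 and 7.51 and then 8.37 and 8.53. The days did not overlap for Atp12a, P2rx7, Rassf1 or Rad9a. Ccdc137 had changes of 1.22 and 1.37, Stk19 of 1.06 and 1.19, and Cabs1 of 1.40 and 1.52. A zinc finger gene, Zfp27, had changes of 1.14 and 1.03. LOC100046049 (2.66 and 1.23), LOC624198 (1.05 and 1.69), scl0002064.1_2 (1.03 and 1.47) and OTTMUSG00000025408 (at least 1.97-fold higher on average, undetected on day 0) have no current symbol.

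Numbered zinc finger genes, most of them DNA-binding factors of the C2H2 type, were higher as a group. Of 198 measured, 130 were higher in both clones (65.7%, against 33.6% of all genes) and 14 lower, with close medians of 0.26 in clone 5 and 0.30 in clone 7. After Zfp27, the largest mean changes were those of Zfp819 (0.68 and 1.47), Zfp35 (0.90 and 1.04) and Zfp105 (0.65 and 1.29). Over all probes kept, 168 of 274 for these genes were higher in both clones and 21 lower.

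Core histone genes were higher in both clones for 47 of 58 members and lower in both for 5. The median was 0.25 in clone 5 and 0.63 in clone 7, and 16 members were at least 2-fold higher in clone 7 against 0 in clone 5. The H4 genes H4c17, H4c1 and H4c9 had mean changes of 1.03, 1.03 and 1.02, and H4c6 had changes of 0.65 and 1.35. Histone genes are near-identical copies, so a probe may read several of them and the members are not separate observations.

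**Figure D3:**
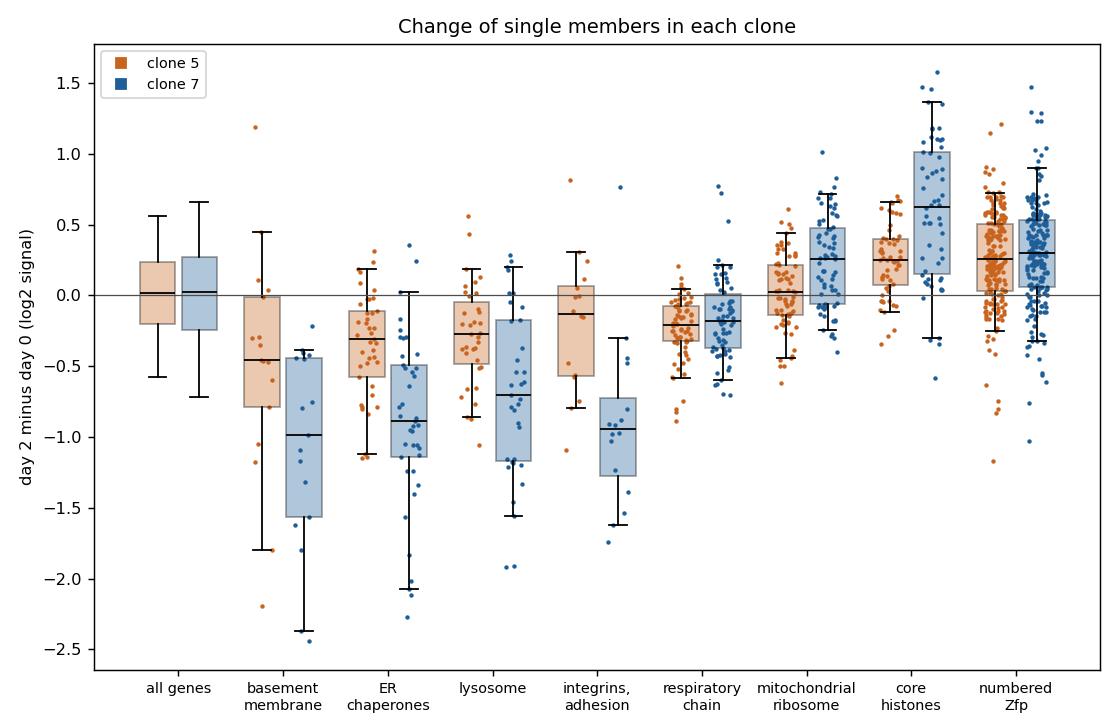
Day 2 minus day 0 change (log2 signal) of each measured member of 8 lists in clone 5 and clone 7, with boxes at the quartiles, a line at the median and whiskers at the outer percentiles; the box of all genes stands at the left without points. ER chaperones centre at -0.305 and -0.89, numbered zinc finger genes at 0.26 and 0.30.

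Mitochondrial genes divided by role. Respiratory chain and ATP synthase subunits were lower in both clones for 47 of 70 members and higher in both for 2, with small and similar medians of -0.21 and -0.18. Cox7a2, a subunit of cytochrome c oxidase, read 7.69 and 7.61 and then 6.89 and 6.92. Cox7b, of the same complex, had changes of -0.89 and -0.36, Cox7a1 of -0.82 and -0.37, and Ndufb3 of complex I changes of -0.58 and -0.64. Mitochondrial ribosomal proteins, which translate the mitochondrial genome, were higher in both clones for 34 of 72 and lower in both for 16. Their median was 0.26 in clone 7 and 0.02 in clone 5, and the clone 5 value was below 0 when arrays were scaled by their medians. Mrpl49, Mrpl50, Mrps30 and Mrpl9 had mean changes of 0.81, 0.63, 0.58 and 0.56. Cytosolic ribosomal proteins had medians of -0.06 and -0.02. With arrays scaled by their medians these were -0.265 and -0.193, so the size depended on the scaling.

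The pluripotency list differed between the clones in the sign of its median. This median of 31 measured core and naive factors was 0.21 in clone 5 and -0.15 in clone 7, with 8 higher in both, 6 lower in both and 17 of opposite sign, against 37.1% of opposite sign over all genes. Sox2 had changes of -0.10 and -0.03, Pou5f1 of -0.10 and -0.47 and Nanog of 0.58 and 0.14. Dppa3, a maternal factor also known as Stella, was higher in both clones (0.61 and 0.58), as was Zfp42, a marker of naive cells (0.39 and 0.55). Klf4, a reprogramming factor, read 5.99 and then 7.15 in clone 5, and 6.23 and then 6.09 in clone 7. Other Klf4 probes were also higher in clone 5, by 1.55 and 1.08, and had clone 7 changes of -0.004 and 0.29, so the sign in clone 7 depended on the probe. Dimmer probes of Nanog (0.66 and -0.12) and Sox2 (-0.53 and 0.20) differed from their brightest probes in clone 7. Primed epiblast genes, of the later state that precedes lineage choice, were lower in both clones for 8 of 14 and higher for 1. Pou3f1 (-0.75 and -0.65), Dusp6 (-0.46 and -0.52) and Otx2 (-0.37 and -0.42) were lower by similar amounts in each clone, whereas Lefty2 differed more in clone 5 (-1.20 and -0.44).

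Zeb1 and Cdh1 mark the mesenchymal and the epithelial state, respectively, and Zeb1 encodes a repressor of Cdh1. Cdh1, E-cadherin, read 8.58 and 8.92 on day 0 and 8.07 and 7.88 on day 2, with no overlap (mean change -0.77 ± 0.19, limma adjusted p = 0.22). Zeb1 read 7.04 and then 7.48 in clone 5, and 7.54 and then 7.18 in clone 7, so its direction differed between clones. Of 30 measured epithelial genes, 14 were lower in both clones and 4 higher. Marveld3 of tight junctions was higher (0.93 and 0.51) but not detected on day 0 of clone 5. F11r, a junction protein, differed in clone 5 (-1.09 and -0.09), and the protease inhibitor Spint2 in clone 7 (-0.12 and -1.03). Of 15 mesenchymal genes, 8 were lower in both clones and 3 higher. Besides Mmp2 these included Vim, the filament protein vimentin (-0.59 and -1.79), Lgals1 (-0.68 and -1.36) and Fn1, fibronectin (-0.66 and -1.32). Both lists thus held more lower than higher members.

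The signalling lists described here also held more members lower than higher in both clones. A BMP list did not, with 4 of 15 measured members lower in both and 4 higher. The share lower in both was 62.5% for interferon, 50% for FGF and ERK, 44.4% for Wnt and 41.2% for LIF and STAT3. Over all genes 29.1% were lower in both. With 14 to 18 measured members each, these shares rest on few genes. Interferon response genes were lower in both clones for 10 of 16 and higher for 2. Irf1, a transcription factor of that response, read 10.26 and 10.13 and then 9.26 and 9.39, and its other probes had changes between -0.97 and -0.64. Ifitm1 and Ifitm3, membrane proteins that block virus entry, differed mainly in clone 7 (-1.62 and -1.61), and Psmb9 of the immunoproteasome had changes of -0.75 and -0.57. Wnt genes, including Porcn, were lower in both for 8 of 18 and higher for 4. Wnt6 had changes of -0.82 and -0.53, Fzd7 of -0.22 and -0.74, and Ctnnb1, beta-catenin, of -0.61 and -0.24. Of 14 FGF and ERK target genes, 7 were lower in both and 1 higher, among them Etv1 (-0.76 and -0.15), Fgfbp3 (-0.56 and -0.70) and Ccnd1, cyclin D1 (-0.35 and -0.48). Fgfbp3 was not detected on day 2 of clone 7, which makes its level there a bound. LIF and STAT3 genes were lower in both for 7 of 17 and higher for 1. Jak2, the kinase of that pathway, was the higher one (0.31 and 0.68), while Mras (-0.49 and -0.96) was lower along with Gbx2.

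Genes of p53 and its targets were lower in both for 10 of 27 and higher for 2. Gadd45a led them, Pltp, a phospholipid transfer protein, had changes of -0.75 and -1.14, Ddit4, an mTOR inhibitor, had changes of -1.04 and -0.33, and Gadd45g was higher in clone 7 only (-0.01 and 1.33). DNA damage checkpoint and repair genes had 21 of 47 members higher in both and 9 lower. Besides Rad9a these included the BRCA1 partner Bard1 (0.84 and 0.55), Xrcc2 of homologous recombination (0.41 and 0.52) and Rad9b, which differed mainly in clone 7 (0.05 and 1.15). Cell cycle and DNA replication genes were near balance, with 10 of 38 higher in both and 14 lower. The replication licensing factor Cdt1 (0.22 and 0.65) and the mitotic kinase Aurka (0.50 and 0.37) were higher, and Rrm2 of nucleotide reduction was lower (-0.65 and -0.25), with another Rrm2 probe at 0.07 and 0.05. Regulators of DNA methylation and Polycomb had 13 of 34 members higher in both and 11 lower, with medians of 0.02 and 0.01 that were below 0 when arrays were scaled by their medians. Tet2 (0.81 and 0.29), Sall4 (0.56 and 0.31), Mtf2 (0.42 and 0.39) and Dnmt3l (0.44 and 0.27) had the largest mean changes there. Other probes had the opposite sign in clone 7 for Tet2 (-0.475) and Sall4 (-0.12).

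Glycolysis and hypoxia genes and those of cholesterol and fatty acid synthesis had medians of opposite sign in the clones. The median of glycolysis and hypoxia genes was -0.22 in clone 5 but 0.19 in clone 7. With arrays scaled by their medians it was -0.36 in clone 5 and only 0.032 in clone 7. The median of the mean changes ranged from -0.104 to 0.047 over settings. Pgk1, phosphoglycerate kinase, had changes of 0.09 and 0.61, and Egln3, an oxygen-sensing hydroxylase, of -1.22 and -0.06. Hk1, hexokinase, and Pfkm, phosphofructokinase, were lower in both (-0.56 and -0.90, then -0.37 and -0.32), although Hk1 was not detected on day 2 of clone 7 and its level there is only a bound. Another Pgk1 probe had the opposite direction (-0.40 and -0.055). For cholesterol and fatty acid synthesis the medians were -0.28 (clone 5) and 0.135 (clone 7), with 17 of 28 members of opposite sign (37.1% over all genes). Ebp, a sterol isomerase, was lower in both clones by similar amounts (-0.85 and -1.04), whereas Scd1, which desaturates fatty acids, differed in clone 5 (-0.91 and -0.08) and Mvk, mevalonate kinase, in clone 7 (-0.20 and 1.17).

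**Figure D4:**
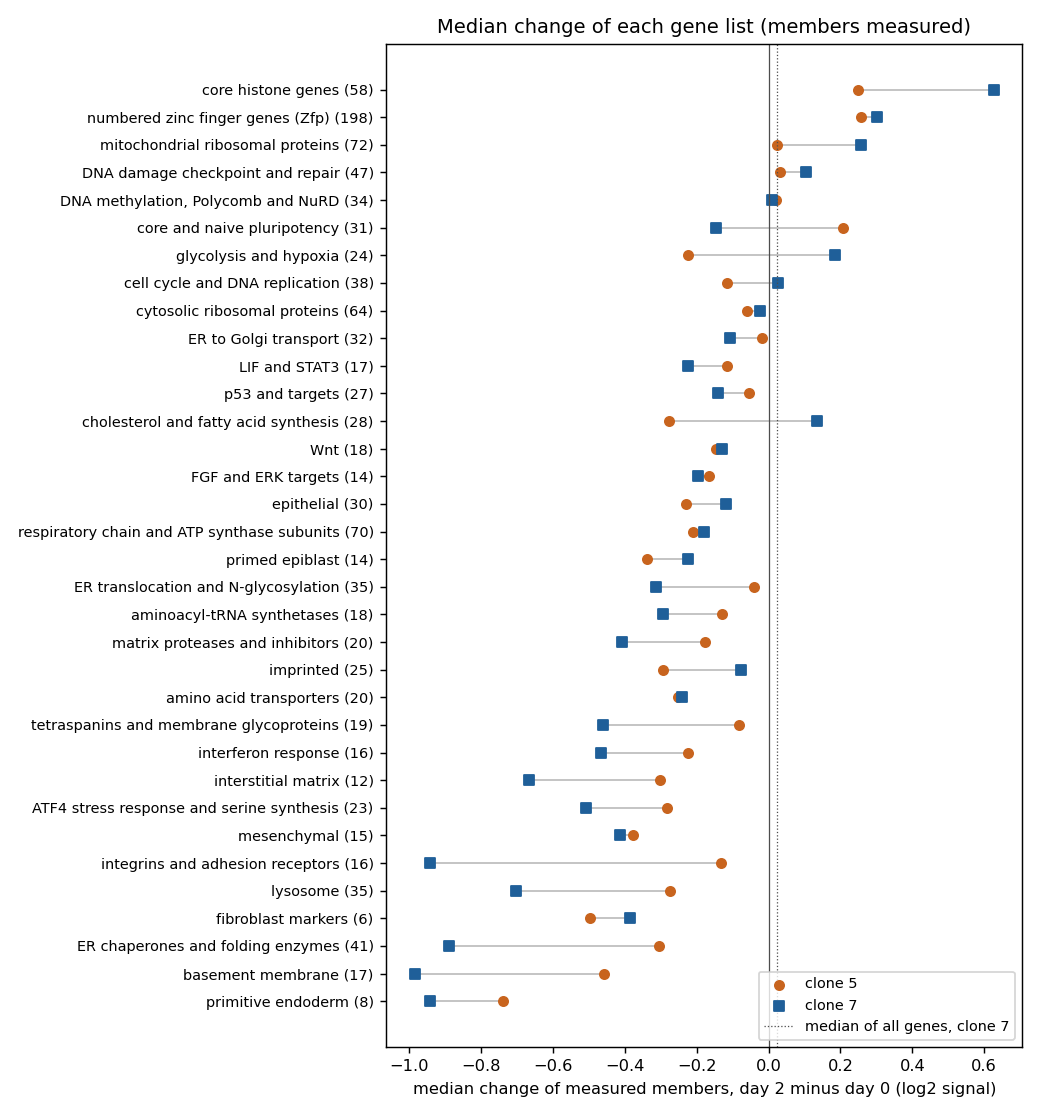
Median day 2 minus day 0 change (log2 signal) of the measured members of 34 gene lists, with a circle for clone 5 and a square for clone 7 and the number of measured members after each name. Core histones, numbered zinc finger genes and mitochondrial ribosomal proteins stand at the top and the primitive endoderm, basement membrane and ER chaperone lists at the bottom; basement membrane medians are -0.46 and -0.98.

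Imprinted genes, expressed from the copy of a single parent, were lower in both clones for 13 of 25 and higher for 4. Slc22a18 (-1.28 and -0.84) and the mannose 6-phosphate receptor gene Igf2r (-0.52 and -1.05) were lower in both clones. The cell cycle inhibitor Cdkn1c read 9.99 and then 7.67 in clone 5, against 6.57 and 7.05 in clone 7. On day 0 the clones thus stood far apart for Cdkn1c, and on day 2 they were closer. Phlda2, from the same imprinted region, showed a like pattern of levels (10.48 and 9.39 in clone 5, 8.21 and 8.03 in clone 7).

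Differences in a single clone rest on a single pair of arrays. By rule, genes under 1.5-fold in the other clone were taken. In clone 5, Pglyrp1, an innate immune protein, read 7.33 and then 4.88 (-2.45, against -0.50 in clone 7). The glycosyltransferase Gcnt3 had a clone 5 change of -1.87, the proton pump subunit Atp6v1c2 of -1.71 and the microtubule protein Tppp3 of -1.61. Higher in clone 5 were Adcy2, an adenylyl cyclase (1.52), Edn1, the peptide hormone endothelin (1.46), the factor Msc (1.38), Zfp444 (1.21) and the transporter Flvcr1 (1.17). For all 5, clone 5 stood below clone 7 on day 0 and above it on day 2, and Adcy2 and Edn1 were not detected in clone 5 on day 0. The 4 lower genes named before them and Cdkn1c had the higher day 0 level in clone 5. Lower in clone 7 were Dcxr, a carbonyl reductase (-2.19), Calr (-2.12), the cell surface peptidase Dpp4 (-2.03), Fstl1 (-1.92) and Pros1, anticoagulant protein S (-1.88). Higher in clone 7 were the demethylase gene Alkbh1 (1.64), Zc3h6 (1.61), 2410006H16Rik (1.60) and the histone gene H4c14 (1.57). H4c14 was detected on neither day 0 array, so it was at least 1.87-fold higher on average, and Zc3h6 was not detected on day 0 of clone 7, so its size there is only a bound. Another Zfp444 probe went the other way (-0.46 and -0.17), and another Atp6v1c2 probe had a clone 5 change of only -0.03.

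**Figure D5:**
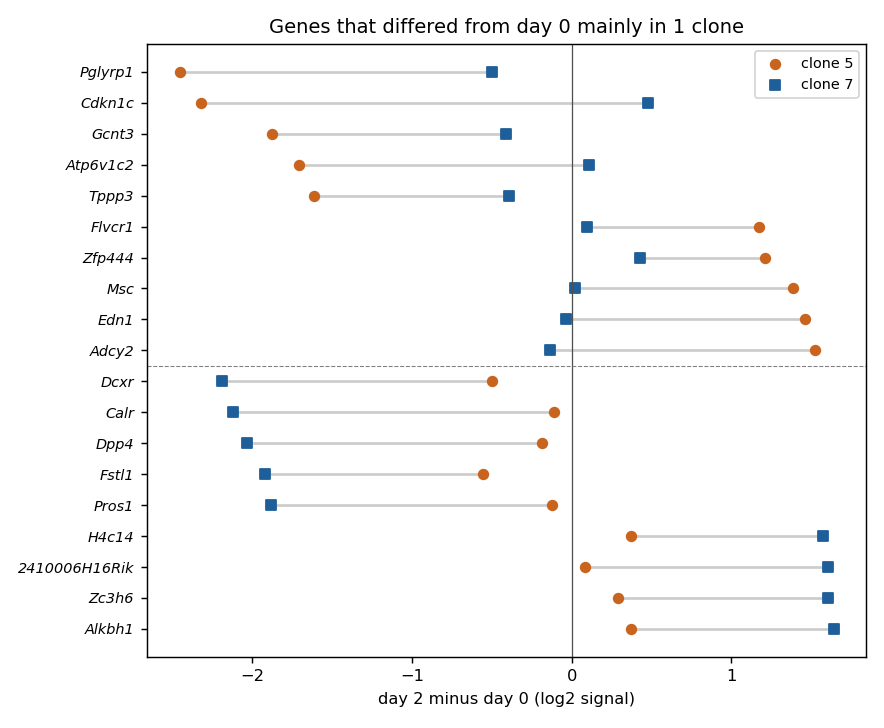
Day 2 minus day 0 change (log2 signal) in clone 5 (circles) and clone 7 (squares) of the 19 genes named for a difference in a single clone; those chosen in clone 5 stand above the dashed line. Cdkn1c was at -2.32 and 0.48, Calr at -0.11 and -2.12.

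Other cell types in the cultures were examined through marker genes. Of 22 fibroblast markers, 6 were measured and 15 were detected on no array of days 0 and 2, among them Col1a1, Col1a2, Col3a1, Dcn and Lum. The summed signal of the 6 measured was 1009 and 521 on day 0 and 528 and 237 on day 2. Thy1, a surface protein of fibroblasts and also of mouse stem cells, read 8.77 and 5.83 and then 6.87 and 5.09. This summed level moved in the direction of the matrix genes in both clones, and its part in their difference was not tested. Of the 6 markers, 3 were lower in both clones, 1 higher in both (Cd34, 0.30 and 0.07) and 2 of opposite sign. A sum is weighted towards bright members, such as Thy1 and Fstl1 (8.63) on day 0 of clone 5. The measured markers Fstl1, Col5a1 and Fbn1 are also on the interstitial matrix list, so the sum is not separate from the matrix genes. The fibrillar collagen genes Col1a1, Col1a2 and Col3a1 were undetected. In bulk RNA, fewer cells of a type and less RNA per cell cannot be told apart. Of 14 macrophage and blood markers 11 were detected on no array of days 0 and 2, among them Ptprc, Csf1r, Adgre1 and Spi1. The 3 measured were Cd68, Laptm5 and Hbb-b1, with summed signals of 5146 and 7614 on day 0 and 5884 and 5428 on day 2. Of 12 endothelial markers 7 were measured, with sums of 484 and 515, then 440 and 331. Primitive endoderm makes a thick basement membrane in the embryo. Its list had 8 of 23 members measured, 4 lower in both clones and 1 higher, and includes the type IV collagens and Sparc, so it is not separate from the matrix lists. Apoe, a lipid carrier on that list, had changes of -0.96 and -1.60. The part of such cells in the matrix values was not tested.

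The authors' deposited table covers 698 probes that the submitters selected on day 5 against day 0, which share the day 0 arrays with the present comparison. In the authors' deposited table, 146 of these probes had an unadjusted p of up to 0.05 on day 2, of which 70 were higher and 76 lower. Col18a1 has log2 changes of -2.39 and -2.36 in the authors' deposited table, Mmp2 of -2.38, Nid1 of -2.21 and Cabs1 of 2.09.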

How the data were processed

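Total RNA of 6 samples, labelled with Cy3, was measured on Illumina mouse bead arrays. RNA was extracted with a QIAGEN RNeasy kit and checked on a Bioanalyser, per the labels' protocols. The table of bead signals that the authors deposited gives each probe an intensity that was neither normalised nor background corrected, per the file headers, and a detection p-value per probe, per the file headers. Series values, deposited on the log2 scale, had been normalised by the authors. The authors' deposited fold change table gives log2 changes and p-values. The programs the authors ran are not given in the sources used here.

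Signals were background corrected by normexp from the detection p-values (offset 16), quantile normalised over the 6 arrays and log2-transformed (limma 3.58.1, R 4.3.3). A probe was kept if its detection p was under 0.05 on both arrays of 1 or more of the 3 days (17471 probes), and the probe with the highest mean stood for a gene (12030 genes). Symbols were updated with RefSeq gene tables of GRCm38.p6: 27740 probes matched by symbol, 8037 through a synonym, and 9504 kept the deposited name. Day and clone were fitted to each gene over all 6 arrays (lmFit and eBayes, 2 residual and 5.24 prior degrees of freedom) with Benjamini-Hochberg adjustment over all genes. Where a probe was detected on neither array of a day, the fold is given as at least the ratio to the lowest detected signal.

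Arrays were paired by clone number, because a clone is the same cell line on each day. Across genes, the correlation of deviations from day means was 0.36 between days 0 and 2, -0.07 between days 0 and 5 and 0.34 between days 2 and 5. The p-values set the day 2 difference against how far these clones differ in their changes over the 3 days. They say nothing about other clones. Lists are described by counts and medians, with no test.

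The comparison, the lists and the rules were chosen with earlier results of these data known. The text names Klf4, Sox2, Nanog, Pou5f1, Cdh1, Zeb1 and Nacc1; the 12 highest and 12 lowest genes by the change in the clone that changed less; up to 4 members of each described list with the largest mean change in size; and, for each clone, the 5 highest and 5 lowest genes under 1.5-fold in the other clone. Genes named for a promoter match are said to be so, and some genes that meet these rules are not reported here. The procedure was tested on simulated data. Alternatives were other background, scaling, filter, probe, shrinkage and threshold settings, the series values, no clone block, and each array left out.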

Additional observations from a re-analysis of the deposited data

Results flagged for a closer look

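Several values had opposite signs in the clones between day 0 and day 2. With 1 array per clone and day, this difference was not tested, and each value rests on a single pair of arrays. Among genes, Klf4 was 1.16 in clone 5 and -0.14 in clone 7 (log2, day 2 minus day 0), Zeb1 0.44 and -0.36, and Nacc1 0.17 and -0.05. Other probes were higher in both clones for Nacc1 (0.11 and 0.04, 0.26 and 0.02) and for Klf4 (1.08 and 0.29). Large clone 5 changes met small opposite ones in clone 7 for Cdkn1c (-2.32 and 0.48), Atp6v1c2 (-1.71 and 0.11), Adcy2 (1.52 and -0.14) and Edn1 (1.46 and -0.04). The reverse held for Tspan6 (0.19 and -1.47), Gadd45g (-0.01 and 1.33), Mvk (-0.20 and 1.17) and Rps15a (0.05 and -0.92). Most of these genes were named because they differed in a single clone or had a large mean change on their list.

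Of the list medians, core and naive pluripotency factors stood at 0.208 in clone 5 and -0.146 in clone 7, cholesterol and fatty acid synthesis at -0.277 and 0.135, and glycolysis and hypoxia at -0.224 and 0.186. With arrays scaled by their medians, the glycolysis and hypoxia values were -0.36 and 0.032. Cell cycle and DNA replication genes stood at -0.117 and 0.025, but the clone 7 value was -0.078 with arrays scaled by their medians and -0.025 with the authors' deposited series values.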

How the results depend on the processing

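The number of genes passing limma was 0 with the clone block and 0 with no replicate block, where 1292 genes had an unadjusted p under 0.05, so the paired fit did not change the call. It was 3 with median scaling, 3 with trended and robust shrinkage and 3 at an adjusted p of 0.1. It was 35 with the 4 arrays of days 0 and 2 and the clone block, and 51 when these were also normalised alone, a setting chosen after seeing the data. Leaving out each array in turn gave 0 to 35, with 35 without either day 5 array, where a lone day 5 array adds no information on the spread and 1 residual degree of freedom remains; a lone array of a day is assumed to vary like the others. Genes at least 2-fold higher and lower in both clones were 3 and 8 without background correction, 3 and 10 with an offset of 50, 131 and 135 with the series values, and 164 and 187 at 1.5-fold. For clone 5 the same counts were 5 and 23, 11 and 37, 466 and 436, and 524 and 578, and for clone 7 36 and 77, 58 and 128, 615 and 750, and 835 and 920. The causes were not tested. Other filters, probe choices and median scaling kept these counts within 1.5 times. Counts in both clones or within a clone cannot be made without an array of that clone. Of the gene values, 17 changed sign, each when 1 array was left out. Leaving out each array gave -0.041 to 0.155 for Nacc1 (the lowest without day 2 of clone 5, -0.012 without day 0 of clone 5), -0.445 to 0.52 for Zeb1 (-0.082 without day 2 of clone 5), -0.042 to 1.07 for Klf4, -1.81 to 0.21 for Atp6v1c2, -0.89 to 0.058 for Ccnd1, -0.01 to 0.38 for Cd34, -2.47 to 0.63 for Cdkn1c, -1.46 to 0.17 for Egln3, -0.13 to 1.40 for Flvcr1, -1.82 to 0.18 for Lefty2, -0.11 to 1.08 for Mvk, -1.39 to 0.13 for Phlda2, -1.12 to 0.25 for Rps15a, -1.11 to 0.12 for Scd1 and -1.30 to 0.02 for Tspan6. The median mean change was -0.66 to -0.455 over settings for ER chaperones, -0.89 to -0.37 for basement membrane, -0.53 to -0.32 for lysosome, 0.24 to 0.53 for core histones and 0.14 to 0.35 for numbered zinc finger genes. Without the detection filter, which adds undetected members, medians were nearer 0 for interstitial matrix (-0.043), matrix proteases (-0.045), mesenchymal genes (-0.058), primitive endoderm (-0.025), fibroblast markers (-0.032) and Wnt (-0.005). A planned count of N-terminal hydrophobic stretches was not run, because protein sequences were not used here.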
